A study of Mus musculus with 12 samples.

Results

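Smoc1 and Slc8a3 are neighbours on mouse chromosome 12 whose annotated intervals held background reads far more densely than the measured genes on either side. Slc10a1 and Cox16 were taken as their flanks. These 4 genes, of 23870 named genes in the files, were chosen by their read density in the same 6 libraries described here, so their densities are a description and carry no test. Of the members' 7 transcript intervals, 5 were distinct, since each of Smoc1 and Slc8a3 was listed with 2 intervals of identical ends. The reads came from chromatin of mpkCCD cells, clone 11, a transformed line of mouse renal collecting duct principal cells, and were immunoprecipitated with control IgG. One group, of 3 libraries, was kept with 0.1 nM dDAVP, a vasopressin analog selective for the V2 receptor, and the other, also of 3, with its vehicle. Both groups were grown on permeable supports, and both were harvested 24 h after serum was withdrawn, with the agent or vehicle present throughout. The series holds 12 samples in 4 groups, and its 6 samples with a Pol II antibody were not analysed here. All libraries come from 1 clone, and the sources do not say whether the experiments were separate cultures.

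Control IgG binds no chosen protein, so its reads are background: chromatin fragments carried through the procedure, whose number depends on how much of a DNA region is present, how well it shears, amplifies and maps, and how open it is. Background reads give no measure of transcription, and the cell type label was not checked against expression here. Smoc1 encodes a secreted, calcium-binding matricellular protein of the SPARC family found in basement membranes. Slc8a3 encodes NCX3, a plasma membrane sodium-calcium exchanger known from brain and skeletal muscle. Slc10a1 encodes NTCP, the sodium-dependent bile acid uptake transporter of hepatocytes, and Cox16 encodes a mitochondrial inner membrane protein needed to assemble cytochrome c oxidase. None of these roles is shared between neighbours, and the genes are grouped by position.

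In mm10 coordinates, Slc10a1 lay at chr12:80953185-80968079 on the minus strand (14.9 kb), and Smoc1 at chr12:81026808-81186414 on the plus strand (160 kb). Slc8a3 lay at chr12:81197915-81333180 on the minus strand (135 kb), and Cox16 at chr12:81470704-81485110 on the minus strand (14.4 kb). Each count covers exons and introns from the first to the last base of the transcript. The microRNA gene Mir3067 lay within the Smoc1 interval, at chr12:81166151-81166234 on the plus strand, and is the smallest measured feature inside the dense DNA. Its hairpin and mature sequences are from RefSeq on GRCm38.p6, with the seed (bases 2 to 8) in capitals in the mature forms. They are shown because this 84-base interval was also counted by itself, although its reads are counted in Smoc1 too. The 2 arms have different seeds.
Mir3067 hairpin: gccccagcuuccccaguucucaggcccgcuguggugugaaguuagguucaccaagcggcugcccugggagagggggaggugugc
mmu-miR-3067-5p: aGUUCUCAggcccgcuguggugu
mmu-miR-3067-3p: cCAAGCGGcugcccugggagagg

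Upstream sequence is shown for the 2 members at which an unmeasured gap begins, since these bases are the first beyond the measured intervals. Both are the 250 bases before the gene's start, from RefSeq on GRCm38.p6, read 5′ to 3′ on the minus strand. That of Slc10a1, at chr12:80968080-80968329, opens the gap between the sparse Slc10a1 interval and Smoc1. That of Slc8a3, at chr12:81333181-81333430, opens the gap between the dense Slc8a3 interval and the sparse DNA to its right. Capitals mark TGACG, the half-site letters of a cAMP response element, sought on both strands (TGACG or CGTCA).
Slc10a1 upstream: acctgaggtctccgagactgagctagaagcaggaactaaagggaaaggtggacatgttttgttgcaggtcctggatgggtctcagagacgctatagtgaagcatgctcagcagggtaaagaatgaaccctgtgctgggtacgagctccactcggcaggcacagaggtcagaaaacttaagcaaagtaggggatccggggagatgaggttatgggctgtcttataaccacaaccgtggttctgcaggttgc
Slc8a3 upstream: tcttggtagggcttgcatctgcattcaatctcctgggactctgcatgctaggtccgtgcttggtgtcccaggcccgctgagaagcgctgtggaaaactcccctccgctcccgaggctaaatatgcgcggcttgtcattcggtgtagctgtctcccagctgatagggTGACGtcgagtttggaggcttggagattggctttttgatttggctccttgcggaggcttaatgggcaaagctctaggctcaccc

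The Slc8a3 sequence held the letters once, at base 167, and the Slc10a1 sequence did not hold them. Of 32851 promoter windows of the same length, 5836 (17.8%) held them. The Slc8a3 window had 11 CpG dinucleotides and 56% GC, and the Slc10a1 window had 6 CpG and 52% GC, against medians of 6 CpG and 52.4% GC over all windows. A match of these letters is a description of the sequence and not a binding site. Smoc1 and Cox16 are named without a sequence.

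The 6 libraries held 12632322 to 13403860 reads over all 33062 common intervals with dDAVP and 10588927 to 19748658 with vehicle. Experiments 1 and 2 of each group differed by little more than sampling noise, with a chi-square over degrees of freedom of 1.02 with dDAVP (p = 0.0402 over 19021 genes) and 1.01 with vehicle (p = 0.157 over 18292 genes). The other pairs within a group had 5.02 to 89.1. Each such pair was counted as 1 sample, so n = 2 in each group, and p-values measure the spread between these samples only, which may be technical. dDAVP experiment 3 stands apart from the other 5 libraries: its density rose strongly with GC content. Among genes within 1 percentage point of 37.5% GC its median was 3.01 reads per kb, and near 50.3% GC it was 17.3. Vehicle experiment 3 went the other way, from 14.8 to 8.72 reads per kb. The remaining libraries fell less, as in vehicle experiment 1 (7.43 to 6.01). Results that rest on dDAVP experiment 3 are given with and without it.

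Density is given as reads per kb divided by the median reads per kb of all named genes in the same library, so that 1 is the level of the median gene. For experiments 1, 2 and 3, the order used throughout, that median was 7.90, 7.52 and 9.34 reads per kb with dDAVP, and 6.43, 6.11 and 10.6 reads per kb with vehicle.

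Smoc1 held 17655, 16805 and 20113 reads with dDAVP, and 14051, 13635 and 20727 with vehicle. In density this was 14.0, 14.0 and 13.5 times the median gene in the dDAVP libraries, against 13.7, 14.0 and 12.3 times with vehicle. The groups overlapped, and vehicle experiment 3 was the lowest. The group means were 13.8 ± 0.36 with dDAVP and 13.1 ± 1.09 with vehicle (SD, n = 2 each). Among the 13948 genes whose interval spans 10 kb or more, Smoc1 ranked 6, 7 and 7 with dDAVP and 7, 6 and 7 with vehicle.

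Slc8a3 held 14876, 14315 and 7778 reads with dDAVP, and 12157, 11306 and 18316 with vehicle. In density this was 13.9, 14.1 and 6.16 times the median gene in the dDAVP libraries, against 14.0, 13.7 and 12.8 times with vehicle. dDAVP experiment 3 lay far below the other 5 libraries, which spanned 12.8 to 14.1. The means were 10.1 ± 5.55 with dDAVP and 13.3 ± 0.713 with vehicle (SD, n = 2 each), and without dDAVP experiment 3 the dDAVP value was 14.0. It ranked 7, 6 and 13 with dDAVP, and 6, 7 and 6 with vehicle.

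The exchanger gene and the matricellular gene, 11.5 kb apart, stood at nearly the same level in 5 of the 6 libraries. The density of Slc8a3 over that of Smoc1 was 0.994, 1.00 and 0.456 with dDAVP, against 1.02, 0.978 and 1.04 with vehicle. dDAVP experiment 3 was the exception, with Slc8a3 far below Smoc1.

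The flanks were close to ordinary. Slc10a1 held 168, 159 and 211 reads with dDAVP, and 154, 150 and 250 with vehicle. In density this was 1.43, 1.42 and 1.52 times the median gene in the dDAVP libraries, against 1.61, 1.65 and 1.59 times with vehicle. The dDAVP libraries were all below the vehicle libraries, and averaged 1.47 ± 0.0658, against 1.61 ± 0.0275 in the vehicle libraries (SD, n = 2 each). Of the 13948 genes of 10 kb or more, 22.4% had all dDAVP libraries below all vehicle libraries in the same way, and after matching for GC content the Slc10a1 groups overlapped.

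Cox16 held 158, 152 and 61 reads with dDAVP, and 124, 120 and 246 with vehicle. In density this was 1.39, 1.40 and 0.454 times the median gene in the dDAVP libraries, against 1.34, 1.36 and 1.62 times with vehicle. The low value was again that of dDAVP experiment 3, and the other 5 libraries lay between 1.34 and 1.62. The means were 0.925 ± 0.667 with dDAVP and 1.48 ± 0.188 with vehicle (SD, n = 2 each), and without dDAVP experiment 3 the dDAVP value was 1.40. The median gene of chromosome 12 lay at 1.39, 1.39 and 1.23 with dDAVP and 1.45, 1.43 and 1.502 with vehicle, so in 5 libraries both flanks were near the level of their chromosome.

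**Figure D1:**
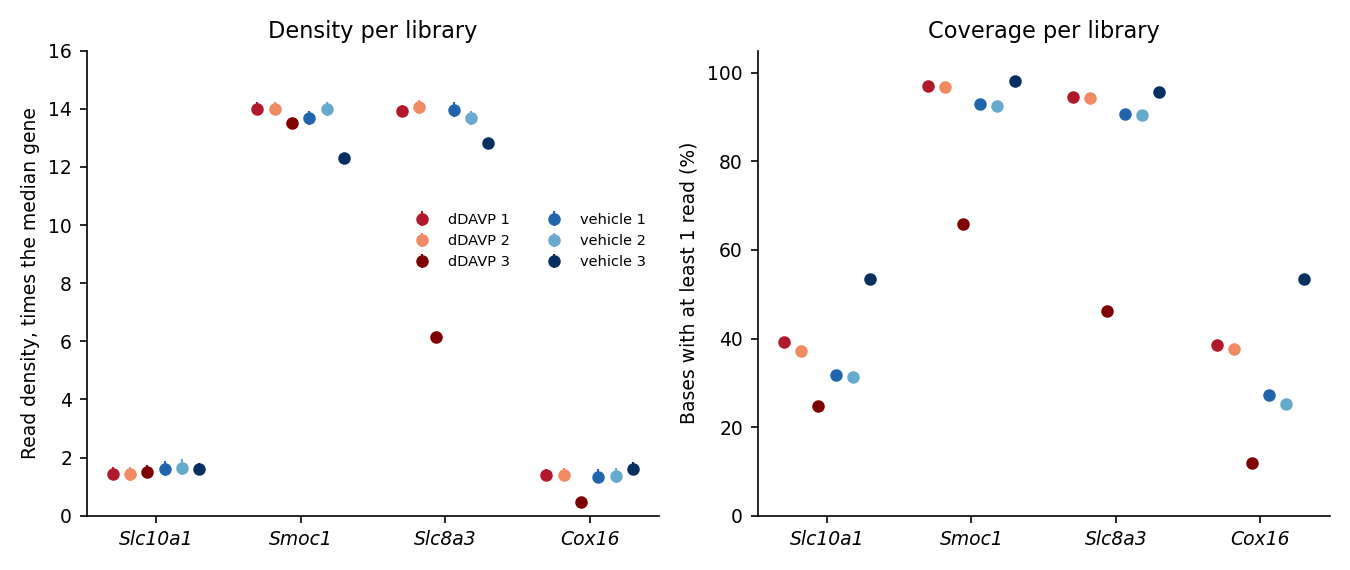
Density over the median gene (left, linear axis from 0, with 95% Poisson intervals that cover counting error only) and percent of bases with at least 1 read (right) for the 4 genes in each of the 6 IgG libraries. Smoc1 sits between 12.3 and 14.0 in every library, Slc8a3 between 12.8 and 14.1 except at 6.16 in dDAVP experiment 3, and both flanks lie below 2.

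Together Smoc1 and Slc8a3 held 0.374%, 0.376% and 0.338% of the reads over 1 interval per gene with dDAVP. With vehicle they held 0.361%, 0.363% and 0.304%, while they make up 0.0292% of the bases of those intervals. Each library pools many cells, so a density cannot tell a higher level in every cell from a much higher one in some of them.

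Outside dDAVP experiment 3, the excess was spread over nearly the whole of both genes rather than stacked at a few places. Reads covered 97.2%, 96.9% and 65.8% of the bases of Smoc1 with dDAVP, and 93.0%, 92.6% and 98.1% with vehicle. In Slc8a3 they covered 94.5%, 94.3% and 46.3% with dDAVP, and 90.7%, 90.5% and 95.6% with vehicle. dDAVP experiment 3 had the least coverage in both genes.

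The sparse flanks were covered much less. Reads touched 39.1%, 37.3% and 24.9% of Slc10a1 with dDAVP, and 31.8%, 31.2% and 53.5% with vehicle. They touched 38.5%, 37.6% and 11.9% of Cox16 with dDAVP, and 27.3%, 25.2% and 53.4% with vehicle. Coverage of both flanks was highest in vehicle experiment 3, the library with the most reads.

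In dDAVP experiment 3 the reads of both dense genes were piled more deeply on fewer bases than in dDAVP experiments 1 and 2. Smoc1 had 5.69, 5.43 and 9.57 read bases per covered base with dDAVP, and 4.74, 4.61 and 6.62 with vehicle. Slc8a3 had 5.82, 5.61 and 6.22 with dDAVP, and 4.95, 4.62 and 7.08 with vehicle. For Smoc1 dDAVP experiment 3 was the deepest of the 6, and for Slc8a3 vehicle experiment 3 was. The flanks were also piled more deeply in dDAVP experiment 3. Slc10a1 had 1.44, 1.43 and 2.85 read bases per covered base with dDAVP, and 1.63, 1.61 and 1.57 with vehicle. Cox16 had 1.42, 1.40 and 1.78 with dDAVP, and 1.58, 1.655 and 1.60 with vehicle. The deeper piling was thus not particular to the dense genes. Whether duplicate reads were removed is not given in the sources used here, and their part in this depth was not tested.

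**Figure D2:**
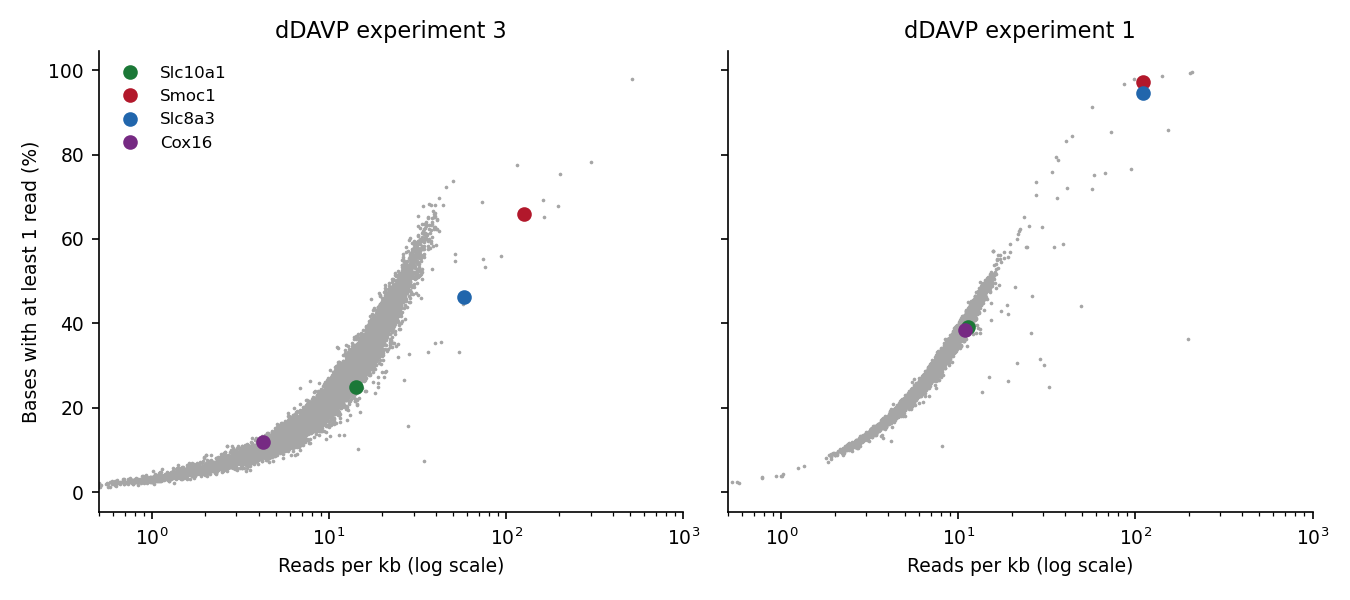
Percent of bases with at least 1 read against reads per kb (log axis) for genes of 10 kb or more (grey) and the 4 members (colours) in dDAVP experiment 3 (left) and dDAVP experiment 1 (right). In experiment 1 Smoc1 and Slc8a3 lie together at 97.2% and 94.5%, and in experiment 3 they lie apart at 65.8% and 46.3%.

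The step at the left side was large in every library. Smoc1 was denser than Slc10a1 by 9.81, 9.86 and 8.90 times with dDAVP, against 8.52, 8.48 and 7.74 times with vehicle. The means were 9.37 ± 0.664 with dDAVP and 8.12 ± 0.539 with vehicle (SD, n = 2 each). With both genes set against genes of like GC content, the step was 9.88, 9.98 and 7.90 with dDAVP, against 8.64, 8.58 and 7.99 with vehicle. On that scale the groups overlapped, and dDAVP experiment 3 was the lowest of the 6.

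The step at the right side was of like size. Slc8a3 was denser than Cox16 by 10.0, 10.0 and 13.6 times with dDAVP, against 10.4, 10.0 and 7.93 times with vehicle. With both genes set against genes of like GC content, this step was 10.3, 10.3 and 5.06 with dDAVP, against 11.15, 10.8 and 9.94 with vehicle. dDAVP experiment 3 thus had the largest step of the 6 before this matching and the smallest after it. Gm4787 and Adam4 are the nearest measured genes to the right of Slc8a3. Over these genes together, the step was 7.92, 8.24 and 5.44 times with dDAVP, against 8.51, 9.60 and 6.60 times with vehicle. Adam4 encodes a member of the ADAM family of membrane-anchored proteins. In the reference annotation these genes lie within the span of Cox16, beyond its measured interval.

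No interval samples the DNA just outside the dense genes, so the edges can only be bracketed. The left edge lay in the gap at chr12:80968080-81026807 (58.7 kb) or in the first part of Smoc1. The right edge lay in the last part of Slc8a3 or in the gap at chr12:81333181-81376990 (43.8 kb). With both genes counted whole, the dense DNA spanned at least 306 kb and at most 409 kb, if it is continuous across the gap between the genes, at chr12:81186415-81197914, which no interval samples.

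Uncovered bases limit how much of either gene could be at the flank's level. If part of Smoc1 were as thinly covered as Slc10a1, its uncovered bases would allow at most 6.60 to 17.2 kb of it in the 5 libraries other than dDAVP experiment 3. For Slc8a3 the limit was 12.04 to 17.3 kb against Cox16, and 13.2 to 18.8 kb against Gm4787 and Adam4. In dDAVP experiment 3 the same sum allowed 72.6 kb of Smoc1 and, against Cox16, 82.5 kb of Slc8a3, so that library places no useful edge.

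Among the members, alternative transcripts gave a piece to measure at Slc10a1 only, because the intervals of Smoc1 and of Slc8a3 end at the same bases. The longer Slc10a1 interval reaches 2307 bases farther from Smoc1, at chr12:80953185-80955491. This outer piece held 27, 22 and 4 reads with dDAVP, and 15, 22 and 30 with vehicle. Its density over that of the rest of the gene was 1.05, 0.876 and 0.105 with dDAVP, against 0.589, 0.938 and 0.744 with vehicle. The near part of Slc10a1 was thus denser than the far part in 5 of the 6 libraries, on few reads, and neither part approached the level of Smoc1. Outside the members, pieces of Map3k9 and Sipa1l1, both to the right of Cox16, had 0.557 to 1.53 times the density of the rest of their genes.

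**Figure D3:**
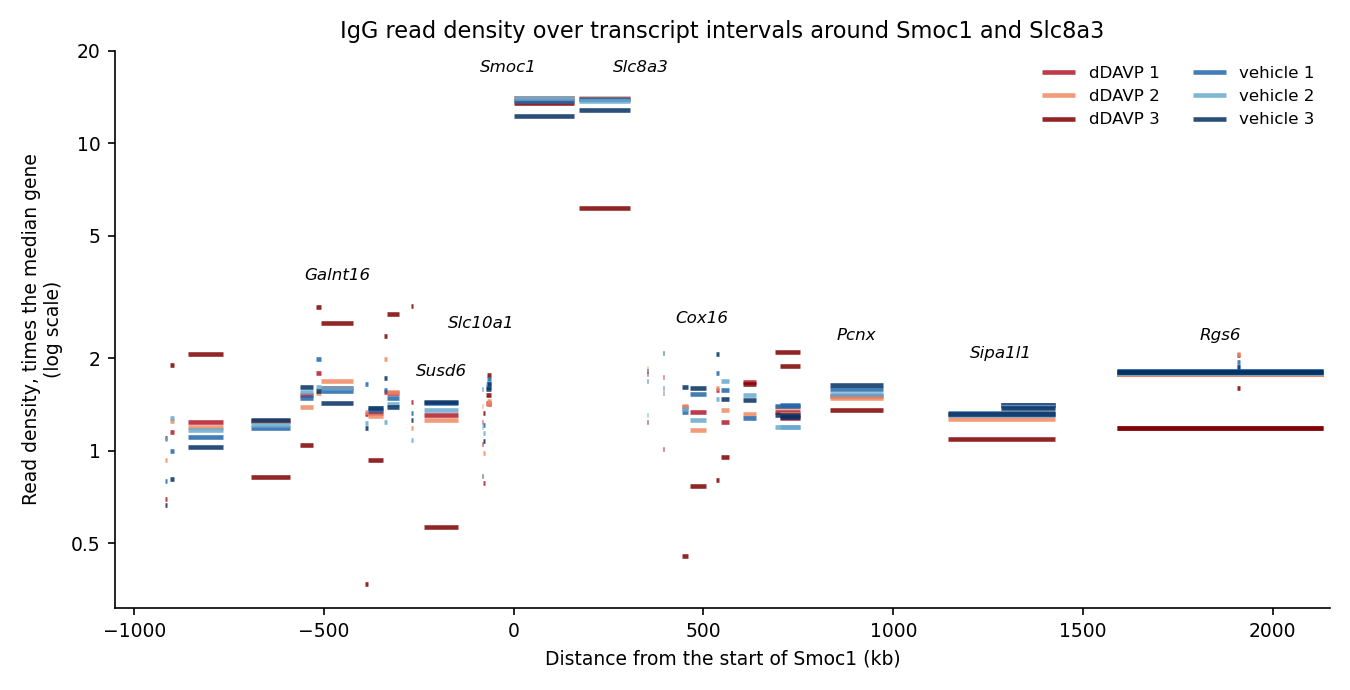
Density over the median gene (log axis) of every interval of 2 kb or more in the 3 Mb window against distance in kb from the start of Smoc1, with a line for each interval in each of the 6 IgG libraries. Smoc1 and Slc8a3 stand above 12 in every library, apart from Slc8a3 at 6.16 in dDAVP experiment 3, while the intervals on both sides lie below 3.

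Mir3067, inside Smoc1 and sharing its reads, was also dense in every library. Its 84 bases held 16, 19 and 70 reads with dDAVP, and 20, 16 and 19 with vehicle, and were covered completely in each. The density of Smoc1 would put 14.7, 14.0 and 16.8 reads there with dDAVP, and 11.7, 11.4 and 17.3 with vehicle. Counted over the predicted number, the ratios were 1.09, 1.36 and 4.18 with dDAVP, against 1.71, 1.41 and 1.1 with vehicle. The exact Poisson 95% interval included 1 in 4 libraries, and it lay above 1 in dDAVP experiment 3 (3.26 to 5.28) and vehicle experiment 1 (1.04 to 2.64). The interval's GC content is 65.5%, well above the 45.4% of Smoc1, and dDAVP experiment 3 is the library whose density rose with GC content; the part of GC content in this value was not tested.

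The GC content of the members' intervals was 44.6% over Slc10a1, 45.4% over Smoc1, 44.1% over Slc8a3 and 37.5% over Cox16. In 300-base tiles, 23.3% of Smoc1 tiles had a GC content of 50% or more, against 10.9% of Slc8a3 tiles, 12.2% of Slc10a1 tiles and 4.17% of Cox16 tiles. The dense pair therefore differed little in mean GC content and more in its share of GC-rich tiles.

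The density in dDAVP experiment 3 over the mean of dDAVP experiments 1 and 2 was 1.06 for Slc10a1, 0.964 for Smoc1, 0.440 for Slc8a3 and 0.325 for Cox16. Among genes of 10 kb or more within 1 percentage point of GC content, Cox16 was typical: its 981 like genes had a median of 0.319. Slc10a1 and Smoc1 lay well inside the range of theirs, with medians of 0.915 over 2059 genes and 1.03 over 1978 genes. Slc8a3 lay at the low end, with 2.85% of 2103 like genes below it, a median of 0.834 and a 5th percentile of 0.486. Slc8a3 was thus low in that library also among genes of like mean GC content, and the part of its share of GC-rich tiles in this was not tested. In vehicle experiment 3 over vehicle experiments 1 and 2, the same ratios were 0.976, 0.889, 0.927 and 1.20.

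**Figure D4:**
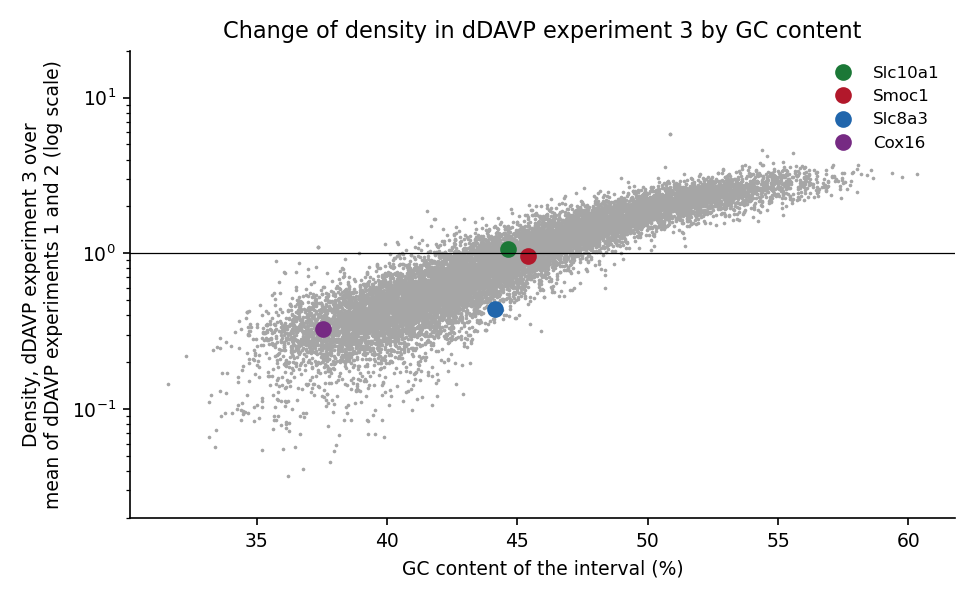
Density in dDAVP experiment 3 over the mean of dDAVP experiments 1 and 2 (log axis) against GC content in percent, for genes of 10 kb or more (grey; genes at 0 are not drawn) and the 4 members (colours). The cloud rises with GC content, and Slc8a3, at 0.440, lies at its lower edge.

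Set against genes of like GC content in the same library, Smoc1 was 13.3, 13.4 and 12.6 times denser with dDAVP, and 12.8, 13.2 and 11.5 times with vehicle. Slc8a3 was 13.2, 13.4 and 7.11 times denser with dDAVP, and 12.9, 12.7 and 11.5 times with vehicle. Both genes thus stayed far above genes of like GC content in all 6 libraries, and Slc8a3 in dDAVP experiment 3 was again the lowest value.

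On this scale the flanks lay at 1.35, 1.34 and 1.60 for Slc10a1 with dDAVP, and 1.49, 1.54 and 1.44 with vehicle. Cox16 lay at 1.28, 1.30 and 1.41 with dDAVP, and 1.16, 1.17 and 1.16 with vehicle. The low Cox16 value of dDAVP experiment 3 was not seen after this matching. Slc8a3 over Smoc1 was 0.991, 0.999 and 0.564 with dDAVP, and 1.01, 0.965 and 0.998 with vehicle, so dDAVP experiment 3 was still the lowest after matching.

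No other gene of 2 kb or more nearby shared the high level. Between 80000000 and 83000000 on chromosome 12 there were 34 named genes, and 3 of them reached 3 times the median gene in every library: Smoc1, Slc8a3 and Mir3067. The other 28 genes of at least 2 kb ranged over 0.699 to 2.04, 0.937 to 2.06 and 0.370 to 2.95 with dDAVP, and over 0.799 to 2.00, 1.09 to 1.88 and 0.667 to 2.07 with vehicle.

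To the left of Slc10a1, Srsf5, which encodes a splicing factor, lay at 0.785, 0.983 and 1.33 times the median gene in the dDAVP libraries, and 1.21, 1.15 and 1.08 with vehicle. The next genes to the left, Gm20337 and 1700052I22Rik, lay between 0.105 and 1.61 over the 6 libraries, on 1 to 29 reads each. To the right of Cox16, Synj2bp, which encodes a mitochondrial outer membrane protein, had 1.34, 1.17 and 0.771 with dDAVP, and 1.53, 1.26 and 1.61 with vehicle. Beyond it, Adam21 and Med6, the second a subunit of the Mediator complex, lay between 0.801 and 2.06. Levels near that of the chromosome were thus present at the first measured gene on either side and held outward from there.

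Across the genome, 7 of the 13948 genes of 10 kb or more (0.0502%) reached 10 times the median gene in all 6 libraries: Angel1, Cipc, Lrrc74a, Smoc1, Syne2 and Vash1 on chromosome 12, and Sfi1 on chromosome 11. Slc8a3 missed this count through dDAVP experiment 3 alone. At 5 times there were 12 genes, of which 10 lay on chromosome 12, and at 2 times there were 28, of which 13 did. Chromosome 12 holds 491 of the genes counted.

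Another dense stretch of chromosome 12, several megabases to the right, runs from Esrrb to Tmem63c. Its 7 listed genes had library medians of 15.7, 15.3 and 21.5 with dDAVP, and 14.3, 14.7 and 11.2 with vehicle. Its genes stood at different levels from each other: Angel1, an Angel-family nuclease gene, averaged 29.3 ± 4.47 with dDAVP and 24.0 ± 2.496 with vehicle. Tmem63c, a gene for a membrane protein, averaged 6.55 ± 2.02 with dDAVP and 4.11 ± 0.490 with vehicle (SD, n = 2 each). Vash1, which encodes a tubulin carboxypeptidase, had 25.6, 26.3 and 55.0 with dDAVP, and 23.1, 23.6 and 16.4 with vehicle. In dDAVP experiment 3 Vash1, of 53.5% GC, was thus above its level in the other libraries, where Slc8a3 was below.

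The genes elsewhere whose 6 log2 densities lay closest to those of Smoc1, by Euclidean distance over the 6 libraries, were Cipc (0.487), Esrrb (0.785), Syne2 (0.853), Lrrc74a (0.967) and Sfi1 (1.27). Its neighbour Slc8a3 lay at 1.13 over the 6 libraries, a distance set by dDAVP experiment 3, and at 0.0751 over the other 5, closer than any gene elsewhere (Cipc was next at 0.335). The closest elsewhere to Slc8a3 were Syne2 (1.04), Cipc (1.53), Fut8 (1.61), Pxdn (1.65) and Esrrb (1.68) over the 6 libraries. Without dDAVP experiment 3 they were Cipc (0.359), Lrrc74a (0.674), Esrrb (0.723), Syne2 (0.766) and Sfi1 (1.06). Of the genes near it over all 6 libraries, Fut8 was also far lower in dDAVP experiment 3. Its densities were 9.23, 9.16 and 2.83 with dDAVP, and 9.82, 9.88 and 10.3 with vehicle. Fut8 was not compared with genes of like GC content, so the part of GC content in its drop was not tested.

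Relatives of the members elsewhere in the genome lay near the median gene. The 10 listed SPARC family and follistatin-like genes had library medians between 1.19 and 1.33. None reached 2 times the median gene in all libraries, a level reached by 0.201% of all genes of 10 kb or more. Smoc2, the closest relative of Smoc1, had 1.51, 1.46 and 1.27 with dDAVP, and 1.44, 1.40 and 1.32 with vehicle. The 8 other sodium-calcium exchanger genes had medians between 0.935 and 1.19, and none reached that level. Slc8a1, the cardiac exchanger gene NCX1, had 1.42, 1.43 and 0.419 with dDAVP, and 1.496, 1.49 and 1.74 with vehicle.

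Library medians were 0.856 to 1.17 for the 6 other Slc10 family genes and 0.830 to 1.095 for the 15 cytochrome c oxidase assembly genes. None of these reached 2 times the median gene in all libraries either, and at so rare a level these counts of 0 say nothing particular to the lists. Slc10a2, the ileal bile acid transporter gene, had 1.01, 1.15 and 0.579 with dDAVP, and 1.32, 1.35 and 1.82 with vehicle.

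The labels' contrast asks whether the background over these genes differed with dDAVP. With edgeR's quasi-likelihood test and Benjamini-Hochberg adjustment over 30912 intervals, no member passed, and 0 intervals (0%) did so anywhere. At an unadjusted p under 0.05 there were 236 intervals, all higher with dDAVP (22 of 210 with the replicate number as a block), and DESeq2 called 0 with 1082 at its unadjusted p. With this background, the members' lack of calls says nothing particular to them.

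The log2 ratio of dDAVP over vehicle was 0.09 for Smoc1 (SE 0.49, 95% interval -1.11 to 1.30, adjusted p = 0.915 by edgeR). It was -0.38 for Slc8a3 (SE 0.58, interval -1.81 to 1.05, adjusted p = 0.714 by edgeR). For the flanks it was -0.11 for Slc10a1 (SE 0.34, interval -0.95 to 0.73, adjusted p = 0.852 by edgeR) and -0.65 for Cox16 (SE 0.59, interval -2.12 to 0.82, adjusted p = 0.619 by edgeR). These intervals are wide enough to hold a doubling or a halving of either dense gene, so no difference was detectable at this spread.

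Without dDAVP experiment 3, the ratios were 0.13 for Smoc1 (SE 0.26), 0.10 for Slc8a3 (SE 0.25), -0.15 for Slc10a1 and -0.05 for Cox16. Here the dDAVP arm is 1 sample, experiments 1 and 2 summed, so the SEs rest on the spread between the vehicle samples, and the lone sample is assumed to vary like them. The negative value of Slc8a3 turned without that library. With an offset from genes of like GC content, they were 0.08 for Smoc1 (SE 0.13), -0.25 for Slc8a3 (SE 0.28), -0.01 for Slc10a1 and 0.20 for Cox16, where the sign of Cox16 turned. This offset was added after the data had been seen.

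**Figure D5:**
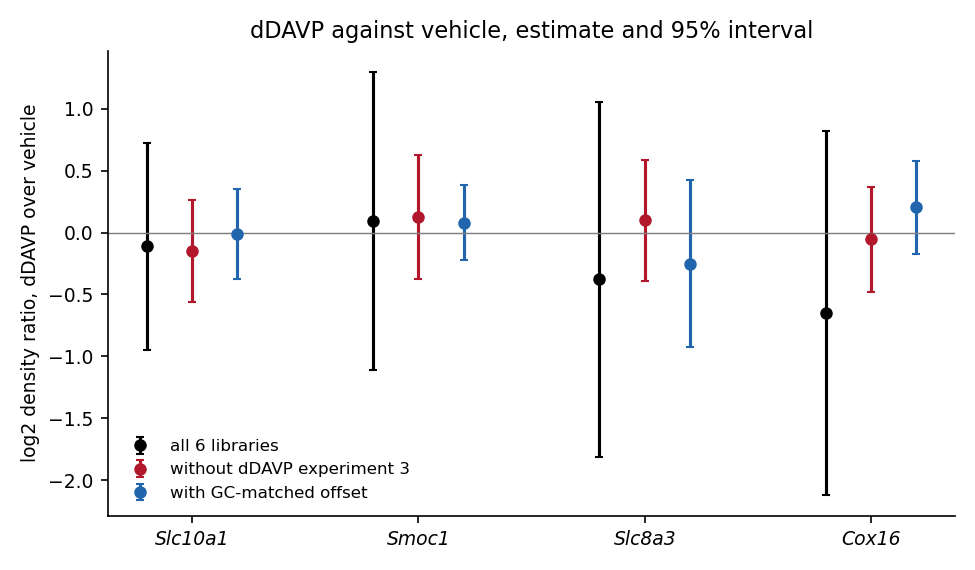
Log2 density ratio of dDAVP over vehicle from edgeR with its 95% interval for the 4 genes, from all 6 libraries (black), without dDAVP experiment 3 (red, where dDAVP is 1 sample and the interval rests on the vehicle spread) and with a GC-matched offset (blue). Every interval drawn spans 0, and those of Slc8a3 and Cox16 are widest with all 6 libraries.

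The balance within the dense pair was also compared. The log2 ratio of Smoc1 over Slc8a3 averaged 0.57 with dDAVP and -0.03 with vehicle, a difference of 0.60 (exact two-sided permutation test, p = 0.667, n = 2 each). With 2 samples per group the smallest p this test allows is 0.333, so it could not pass. Without dDAVP experiment 3 the difference was 0.03, so it rests on that library.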

How the data were processed

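Per the labels' protocols, cells were fixed in 1.11% formaldehyde, chromatin was sheared to fragments near 300 bp, a gel cut of 200 to 400 bp was kept, and reads were 50 bases long. BWA mapped them to mm10, per the labels; the submitters' processing notes also list SAMtools and bedtools, without versions. The deposited counts are reads overlapping each RefSeq transcript interval from start to end, introns included, with no normalization and no use of strand, per the file headers and values. The covered bases, the interval length and the fraction of bases with at least 1 read were deposited beside each count. Whether duplicates or poorly mapped reads were removed is not stated in the sources. A read is counted in every interval it overlaps, so Mir3067 shares its reads with Smoc1.

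Of the 33062 common intervals, 99.1% were given a symbol from RefSeq or GENCODE gene tables. GC content was read from GRCm38.p6, which has the chromosome coordinates of mm10. For each named gene the longest interval was used. GC-matched values divide by the median density of autosomal genes of at least 2 kb within 1 percentage point of GC content. Libraries were compared by chi-square over genes with at least 40 reads, and pairs with a ratio to degrees of freedom under 1.1 were counted as agreeing within sampling noise. Experiments 1 and 2 of a group met it and were summed, or averaged, as 1 sample. The per-interval test was edgeR 4.0.16 in R 4.3.3 with TMM, filterByExpr and a threshold of 0.05, and DESeq2 1.42.0 was the other tool. Other values were computed with Python 3.11.15, pandas 2.3.3 and scipy 1.17.1. Intervals on counts cover counting error only.

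The members, lists and tests were chosen with earlier results of these data known. Named were the members, the 3 nearest genes on each side of both flanks, genes in the 3 Mb window at 3 times the median gene or more in all libraries, relatives, the other dense stretch, and the 5 genes of 10 kb or more with the nearest pattern to Smoc1 and to Slc8a3. Relatives and stretch genes given with values, and Fut8, were picked after their values were seen. Alternatives were other scalings, filters, measures and sets of libraries.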

Additional observations from a re-analysis of the deposited data

How the results depend on the processing

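Leaving out each library in turn, the mean density over the 6 libraries as 4 samples ranged over 13.4 to 13.8 times the median gene for Smoc1, 11.3 to 13.6 for Slc8a3, 1.52 to 1.55 for Slc10a1 and 1.07 to 1.46 for Cox16, and the steps over 8.69 to 9.08 (Smoc1 over Slc10a1) and 9.40 to 11.3 (Slc8a3 over Cox16). Covered bases were also used in place of reads, as minus the log of the fraction of bases without a read. On that measure Smoc1 was at 8.50 (main value 13.4), Slc8a3 at 6.87 (11.7) and Slc10a1 at 1.45 (1.54). The steps were 5.79 and 5.70 (8.74 and 10.4). The cause of these lower values was not tested. With GC-matched genes Smoc1 was at 12.6, and with the shortest interval per gene Slc10a1 was at 1.63. The outer piece of Slc10a1 is too short for a 5 kb minimum and has no value there.

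No interval was called in any of the contrast's alternatives except with dDAVP experiment 3 alone against vehicle, which called 23054 intervals and gave Slc8a3 -1.12 (edgeR adjusted p = 5.19e-06) and Cox16 -1.71 (edgeR adjusted p = 4.715e-09). There the lone dDAVP library is assumed to vary like the vehicle samples. Signs turned for Slc10a1 at 0.13 without TMM, where the median of all intervals moved to 0.24, and for Smoc1 at -0.0068 without vehicle experiment 3 (all 4 members without each library: -0.66 to -0.05 for Cox16, -0.15 to -0.08 for Slc10a1, -0.45 to 0.10 for Slc8a3 and -0.01 to 0.13 for Smoc1). Slc8a3 turned to 0.10 without dDAVP experiment 3 and Cox16 to 0.20 with the GC-matched offset, and the cause of these turns was not tested. Intervals at an unadjusted p under 0.05 numbered 236 in the main fit, 818 without TMM, 1201 with 6 separate libraries, 672 without dDAVP experiment 3 and 1 without vehicle experiment 3.

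Deviations of same-numbered experiments correlated negatively between the groups (correlations -0.398, -0.417 and -0.617). Experiments 1 and 2 of each group were counted as agreeing within sampling noise. The correlations therefore mostly repeat a single contrast, experiment 3 against the others in its group, and are not separate evidence. They cannot decide whether the numbers pair the samples. With the replicate block 0 intervals were called (210 at an unadjusted p under 0.05, of which 22 were higher with dDAVP), Smoc1 was at 0.10 and Slc8a3 at -0.50, and the log2 ratio of Smoc1 over Slc8a3 differed by 0.60. With the crossed pairing 0 were called (2868 unadjusted, of which 982 were higher).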
